A study of Mus musculus with 12 samples.

Results

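The ErbB and MET receptors of mouse liver were followed through 8 genes: the receptor genes Erbb3, Egfr, Erbb2 and Met, the ligand gene Hgf, and Errfi1, Lrig1 and Grb7, whose products act on these receptors or bind them. The genes were picked by symbol, with earlier results of these data known. Each was read by the probe set to which the array annotation gives that symbol alone. Had several matched, the one with the highest mean over the arrays would have been taken, but all 8 genes had 1 such probe set, 8 of the 28213 on the array, of which 21640 carry 1 symbol. A further probe set that Erbb2 shares with another gene was not used. The array compared livers of wild type C57BL/6 mice, 6 weeks old by the sample labels, taken 6 h after a subcutaneous dose. Of the 12 arrays, 3 come from mice given 55 nmol/kg insulin glargine, 3 from mice given 55 nmol/kg Albulin, 3 from mice given 55 nmol/kg Insulin-Apo and 3 from mice given saline. Insulin glargine is a long-acting insulin analogue, whereas Albulin is insulin fused to albumin and in Insulin-Apo apolipoprotein A-I is the fusion partner of a single-chain insulin. The methods describe the saline, Albulin and Insulin-Apo arrays but no arrays of insulin glargine, which are known here from the labels, and they give female mice of a greater age at purchase. The sources used here do not state whether the insulin glargine arrays were processed together with the others, so treatment and processing set cannot be told apart for that group.

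ErbB receptors are cell surface tyrosine kinases that pair up when a ligand of the epidermal growth factor family binds. ErbB3 has a weak kinase and binds neuregulins, and it signals to phosphoinositide 3-kinase together with its partner ErbB2, which itself has no known ligand. Hepatocytes carry much EGF receptor and MET, the receptor of hepatocyte growth factor (HGF), and both receptors drive hepatocyte growth when the liver regenerates. HGF is made mainly by the stellate and endothelial cells beside the hepatocytes.

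RefSeq promoter windows of build GRCm38.p6, which run from 250 bases before to 50 bases after a transcription start, were found for 6 of the 8 genes, in 8 windows. They were searched on both strands for a forkhead motif (GTAAACA), an insulin response motif (CAAAACA), an E-box (CACGTG), an AP-1 motif (TGAGTCA) and a GC box (GGGCGG), which occur in 3.65%, 6.28%, 7.15%, 5.2% and 35.7% of all 32851 windows. No window was found for Erbb3 or Grb7, so neither gene was searched. The windows of Egfr and Met are shown because these receptors moved in the comparisons below, and the first of the Hgf windows because it held a forkhead motif. Capitals mark the matches. Egfr lies at chr11:16751953-16752252 on the plus strand, Met at chr6:17463707-17464006 on the plus strand and Hgf at chr5:16553245-16553544 on the plus strand.
Egfr: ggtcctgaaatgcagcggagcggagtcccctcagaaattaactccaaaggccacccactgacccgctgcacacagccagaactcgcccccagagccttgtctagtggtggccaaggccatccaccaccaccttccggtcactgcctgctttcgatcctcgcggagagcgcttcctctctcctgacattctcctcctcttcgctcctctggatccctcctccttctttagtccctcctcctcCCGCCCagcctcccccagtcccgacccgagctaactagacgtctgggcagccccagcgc
Met: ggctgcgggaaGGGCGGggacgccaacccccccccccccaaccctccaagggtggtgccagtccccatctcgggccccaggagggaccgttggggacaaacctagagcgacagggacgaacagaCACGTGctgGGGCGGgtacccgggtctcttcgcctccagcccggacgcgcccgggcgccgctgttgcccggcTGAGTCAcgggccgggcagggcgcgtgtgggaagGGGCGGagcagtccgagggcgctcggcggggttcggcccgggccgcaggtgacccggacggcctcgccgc
Hgf: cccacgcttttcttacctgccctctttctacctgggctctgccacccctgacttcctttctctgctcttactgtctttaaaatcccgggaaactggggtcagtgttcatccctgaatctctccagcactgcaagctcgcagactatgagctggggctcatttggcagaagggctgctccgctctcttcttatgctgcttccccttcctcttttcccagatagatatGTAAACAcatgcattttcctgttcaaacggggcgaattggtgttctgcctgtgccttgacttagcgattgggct
The Egfr window held 1 match, a GC box on the minus strand at position -9 from the start. The Met window held an E-box, an AP-1 motif and 3 GC boxes, none of them overlapping another. The forkhead motif of Hgf began at position -24, and none of the 8 windows held the insulin response motif. Of the windows not shown, those of Erbb2, the other Hgf start and 1 of the Errfi1 starts held no match. Those of Lrig1 and the other Errfi1 start held GC boxes only. A match of letters is a description of the window and not a site of binding.

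The deposited values are log2 expression values, on which a difference of 1 is a 2-fold change. Array medians ranged from 7.70 to 7.77, and arrays correlated with the others of their own group at a mean r of 0.990 to 0.993 for insulin glargine, against 0.995 to 0.997 for the other groups. All 8 hepatocyte markers, Alb and Ttr among them, were far above the filter in each group, with group means of 13.47 to 14.84. Since the highest value of an array was about 15, these markers show the tissue but say little of changes in it. A probe set was called changed when limma gave it a B statistic, the log odds that it differs, above 0, and beside it stands the p value after Benjamini-Hochberg adjustment over all probe sets tested. The small number of arrays, 3 per group, limits the precision, and the sources do not state that each array holds a separate mouse, so p values measure the spread between these arrays only, which may be technical. All comparisons with saline use the same 3 saline arrays. Values of different probe sets are not comparable as levels, since each has its own probes.

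The 3 receptor genes Erbb3, Egfr and Met fell after insulin glargine, and they were the only called genes of the 8 in that comparison. Of all 26027 probe sets tested, 4.84% were called between insulin glargine and saline and 2.6% were called lower, against 3 of the 8 genes here, all lower. As the 8 genes were chosen with earlier results of these data known, this count describes these arrays and is no test of the group. The median log2 difference of the 8 genes was -0.30, against -0.00 over all probe sets. Since bulk tissue was measured, fewer cells of a type and less RNA per cell cannot be told apart.

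Erbb3 (probe set 10373467) showed by far the widest range of the 8 genes, 2.78 on the log2 scale over the 12 arrays. Its log2 values were 8.80, 9.53 and 9.01 in the insulin glargine livers, 11.58, 11.40 and 11.39 in the Albulin livers, 11.11, 11.15 and 11.19 in the Insulin-Apo livers and 11.59, 11.49 and 11.30 in the saline livers. The 3 insulin glargine arrays lay below the other 9 by at least 1.58, and they also differed among themselves more than any other group did, with an SD of 0.37 against 0.04 to 0.15. The means were 9.11 ± 0.37 for insulin glargine and 11.46 ± 0.15 for saline (log2, SD, n = 3 each). Erbb3 fell by 2.35 on the log2 scale after insulin glargine (standard error 0.15, adjusted p = 3.53e-06, limma), 5.08-fold lower than in saline, and ranked 4 of 26027 among the most negative differences. The call held in 21 of 21 alternative settings, with log2 differences between -2.55 and -2.19.

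Neither fusion protein gave a called change of Erbb3 relative to saline. The Albulin arrays overlapped those of saline, with a log2 difference of -0.01 and a 95% interval of -0.19 to 0.18, so a change as large as that after insulin glargine lies far outside the interval. The Insulin-Apo arrays lay below all saline arrays, with a log2 difference of -0.31 (interval -0.50 to -0.12, adjusted p = 0.0746, limma), which was not called. By mean the groups ran from insulin glargine through Insulin-Apo to Albulin and saline, and of the neighbours in this order insulin glargine and Insulin-Apo alone were separated by a called difference.

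**Figure D1:**
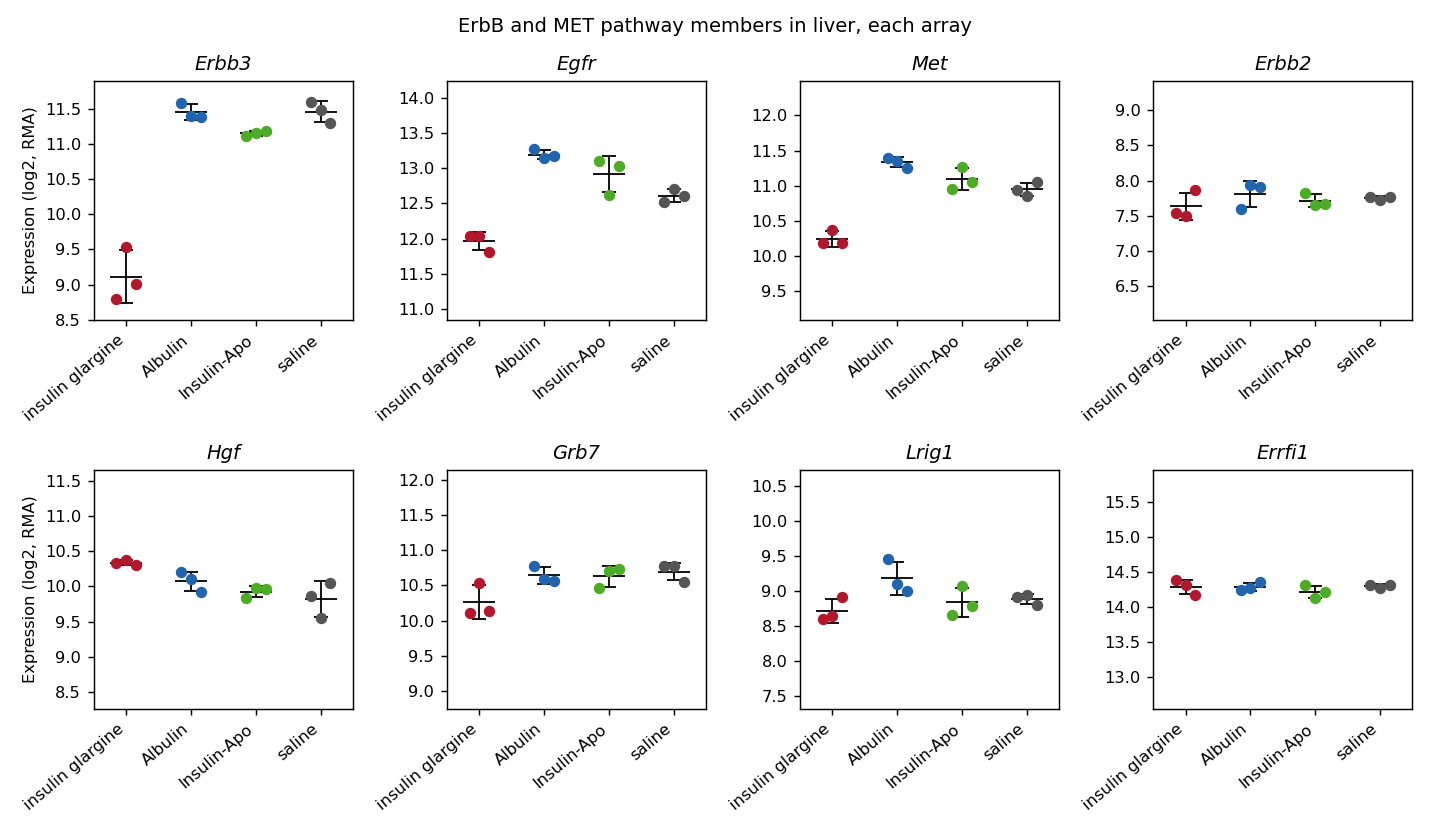
Log2 expression of the 8 genes in each of the 12 arrays, 1 panel per gene, with groups on the x axis from insulin glargine to saline, points for arrays and a bar for the mean with its SD; every panel spans the same number of log2 units. The insulin glargine arrays of Erbb3, at 8.80 to 9.53, and those of Egfr and Met lie below every other array of the gene.

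Egfr (probe set 10374366), the receptor of epidermal growth factor, was lower after insulin glargine and higher after Albulin. The log2 values were 12.04, 12.04 and 11.81 after insulin glargine, 13.27, 13.15 and 13.17 after Albulin, 13.10, 12.62 and 13.03 after Insulin-Apo and 12.52, 12.70 and 12.60 after saline. The insulin glargine arrays lay below, and the Albulin arrays above, all saline arrays, while 1 Insulin-Apo array lay among those of saline. Egfr fell by 0.64 on the log2 scale after insulin glargine (standard error 0.12, adjusted p = 0.00363, limma), to 11.96 ± 0.13 against 12.61 ± 0.09 in saline (SD, n = 3 each). This call was lost without saline replicate 2, saline replicate 3 or insulin glargine replicate 3, with log2 differences of -0.60, -0.64 and -0.57 and adjusted p values of 0.0212, 0.0148 and 0.00936.

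After Albulin, Egfr rose by 0.59 on the log2 scale to 13.19 ± 0.07 (standard error 0.11, adjusted p = 0.0154, limma), the only called gene of the 8 between Albulin and saline. Of all 25989 probe sets tested there, 2.41% were called, 1.37% as higher, and the count here rests on 1 gene. The call was lost in 6 of 19 settings, namely with the replicate number as a block and without Albulin replicate 1, 2 or 3 or saline replicate 1 or 3, where the log2 difference stayed between 0.54 and 0.61. After Insulin-Apo the log2 difference was 0.31 (interval 0.06 to 0.56, adjusted p = 0.17, limma) and was not called, but without Insulin-Apo replicate 2, the array at 12.62, it was 0.46 and called (adjusted p = 0.0203, limma). The means ran from insulin glargine through saline and Insulin-Apo to Albulin, and of the neighbours only insulin glargine and saline differed by the call.

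Met (probe set 10536505), the HGF receptor, had the same order of group means as Egfr. Its log2 values were 10.18, 10.37 and 10.18 after insulin glargine, 11.40, 11.35 and 11.26 after Albulin, 10.96, 11.27 and 11.05 after Insulin-Apo and 10.94, 10.86 and 11.05 after saline. All insulin glargine arrays lay below and all Albulin arrays above those of saline, and the Insulin-Apo and saline arrays overlapped. Met fell by 0.71 after insulin glargine (standard error 0.09, adjusted p = 0.000514, limma), to 10.24 ± 0.11 against 10.95 ± 0.10 in saline livers (SD, n = 3 each), and the call held in 21 of 21 settings. After Albulin Met had a log2 difference of 0.39 (standard error 0.09), whose adjusted p of 0.0316 (limma) passed 0.05 while its B did not pass 0, so it was not called. The difference after Insulin-Apo was 0.15, with an interval of -0.05 to 0.34.

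Hgf (probe set 10519857), which encodes the ligand of MET, had its highest mean after insulin glargine but was not called in any comparison. The log2 values were 10.34, 10.37 and 10.30 after insulin glargine, 10.20, 10.10 and 9.92 after Albulin, 9.84, 9.98 and 9.97 after Insulin-Apo and 9.87, 9.55 and 10.05 after saline. The insulin glargine arrays lay above all 9 others and close together, with an SD of 0.04, whereas the saline arrays were the most scattered, with an SD of 0.25. The log2 difference between insulin glargine and saline was 0.51 (standard error 0.11, adjusted p = 0.0112, limma) with B below 0, so Hgf was not called, except without saline replicate 3, where the difference was 0.63. The differences after Albulin and Insulin-Apo were 0.25 (interval -0.01 to 0.51) and 0.11 (interval -0.15 to 0.37). Markers of stellate cells, a source of HGF, had summed linear values of 17500 to 19900 in insulin glargine livers and 16000 to 19600 in saline livers, and none of the 12 was called. Those of sinusoidal endothelial cells summed to 12300 to 17900 in insulin glargine livers and 12400 to 19000 in saline livers, with none of 9 called. By adjusted p, 2 of the 12 stellate markers passed 0.05 with B below 0, Pdgfra at 0.40 (adjusted p = 0.009, limma) and Lrat at -0.70 (adjusted p = 0.0273, limma). So did 3 of the 9 endothelial markers, Lyve1 at 1.15 (adjusted p = 0.0111, limma), Pecam1 at 0.31 (adjusted p = 0.0175, limma) and Kdr at -0.37 (adjusted p = 0.0311, limma). Their part in the Hgf values was not tested.

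Grb7 (probe set 10380927), an adaptor that binds phosphorylated ErbB receptors and lies close to Erbb2 on chromosome 11, was not called in any comparison. Its log2 values were 10.11, 10.54 and 10.14 after insulin glargine, 10.78, 10.59 and 10.56 after Albulin, 10.46, 10.70 and 10.73 after Insulin-Apo and 10.77, 10.77 and 10.55 after saline. Insulin glargine replicates 1 and 3 were the lowest of the 12 arrays, and replicate 2 lay only 0.01 below the lowest saline array and above the lowest of Insulin-Apo. The log2 difference between insulin glargine and saline was -0.43 (standard error 0.12, adjusted p = 0.0396, limma) with B below 0, and -0.57 and called without insulin glargine replicate 2. After Albulin and Insulin-Apo the differences from saline were -0.05 (interval -0.27 to 0.16) and -0.07 (interval -0.28 to 0.14).

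Lrig1 (probe set 10546510), whose membrane protein promotes the breakdown of ErbB receptors and of MET, ranged over 0.85 on the log2 scale. The values were 8.60, 8.64 and 8.91 after insulin glargine, 9.45, 9.10 and 9.0 after Albulin, 8.66, 9.07 and 8.78 after Insulin-Apo and 8.91, 8.95 and 8.80 after saline. The Albulin arrays lay above all saline arrays, and those of insulin glargine and Insulin-Apo overlapped with saline. None of the differences from saline was called. They were -0.17 (interval -0.45 to 0.11) after insulin glargine, 0.30 (interval 0.02 to 0.57, adjusted p = 0.236, limma) after Albulin and -0.05 (interval -0.32 to 0.22) after Insulin-Apo.

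Erbb2 (probe set 10380896), the partner of ErbB3, was not called in any comparison. Its log2 values were 7.54, 7.50 and 7.86 after insulin glargine, 7.60, 7.93 and 7.91 after Albulin, 7.82, 7.65 and 7.67 after Insulin-Apo and 7.77, 7.72 and 7.76 after saline, and all groups overlapped with saline. The difference between insulin glargine and saline was -0.11, with an interval of -0.35 to 0.12. Errfi1 (probe set 10510574), whose product binds the kinase of the EGF receptor and inhibits it as feedback, had the smallest range of the 8, between 14.13 and 14.38 in all 12 arrays, with a difference of -0.01 between insulin glargine and saline (interval -0.17 to 0.15). Its values lay only 0.57 to 0.82 below the highest value of their array, where array signals come near their upper limit, and whether this limit narrowed its differences was not tested.

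Between Insulin-Apo and saline none of the 8 genes was called, where limma called 2.14% of all probe sets. By unadjusted p (limma), Erbb3 at 0.00389 ranked 1354 of 25989 and Egfr at 0.0182 ranked 2767. The rest of the 8 had an unadjusted p of 0.121 or more (limma). Counted by adjusted p under 0.05 instead of B, the number was 5 of 8 after insulin glargine, 2 after Albulin and 0 after Insulin-Apo, against 10.9%, 4.69% and 3.73% of all probe sets.

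**Figure D2:**
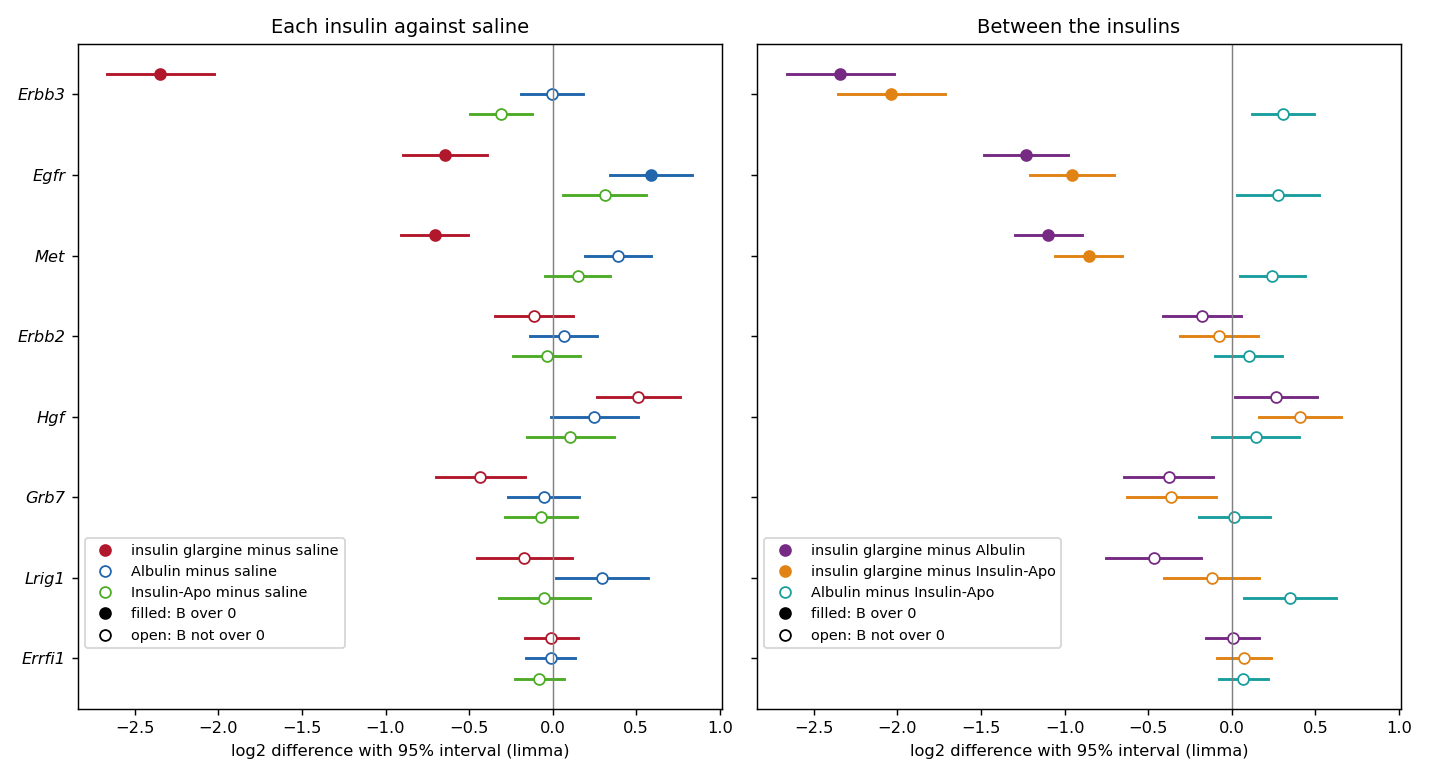
Log2 difference of each of the 8 genes, with its 95% interval, in the 6 comparisons between groups, where filled symbols mark called differences. Erbb3 stands at -2.35 between insulin glargine and saline, beside Met at -0.71 and Egfr at -0.64.

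The 3 insulins were compared with each other at the same dose and time, in 3 pairs. Between insulin glargine and Albulin the same 3 receptor genes were called, all lower after insulin glargine, against 4.35% of all probe sets called and 2.35% called lower. Erbb3 had a log2 difference of -2.34 (standard error 0.15, adjusted p = 4.37e-06, limma), Egfr of -1.23 (standard error 0.12, adjusted p = 5.17e-05) and Met of -1.10 (standard error 0.09, adjusted p = 2.3e-05). For Egfr and Met these were larger in size than the differences from saline, as the Albulin means lay above those of saline. Each of these 3 calls held in 21 of 21 settings. Lrig1 had a difference of -0.47 (adjusted p = 0.0448, limma) with B below 0, Grb7 of -0.38 (adjusted p = 0.0793), and Hgf of 0.26 (interval 0.02 to 0.51). By adjusted p under 0.05 the count was 4 of 8, against 8.94% of all probe sets.

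Between insulin glargine and Insulin-Apo the called genes were again Erbb3, with a log2 difference of -2.04 (standard error 0.15, adjusted p = 1.13e-05, limma), Egfr with -0.96 (standard error 0.12, adjusted p = 0.000274) and Met with -0.86 (standard error 0.09, adjusted p = 0.000138), against 4.84% of all probe sets called and 2.88% called lower. These calls held in 21 of 21 settings as well. Hgf had a difference of 0.41 (adjusted p = 0.0368, limma), not called by B, and Grb7 of -0.36 (adjusted p = 0.0816). By adjusted p under 0.05 the count was 4 of 8, against 10.8% of all probe sets. Both comparisons use the same insulin glargine arrays.

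Between Albulin and Insulin-Apo, which carry different fusion partners, none of the 8 genes was called and none had an adjusted p under 0.05. Limma called 0.639% of all probe sets there. By unadjusted p (limma), Erbb3 at 0.00431 ranked 646 of 25989, Lrig1 at 0.0183 ranked 1765, Met at 0.0198 ranked 1862 and Egfr at 0.0324 ranked 2636. The rest of the 8 had an unadjusted p of 0.253 or more (limma). All 8 differences were above 0, with a median of 0.19 against 0.02 over all probe sets, although that of Grb7, 0.01, was -0.01 when arrays were centred on their medians. As the median over all probe sets was itself above 0, positive differences were the more common ones there too. The 8 differences come from the same arrays and are not independent. The intervals do not exclude differences for several genes. Erbb3 had a difference of 0.30 (interval 0.12 to 0.49, adjusted p = 0.173, limma), Lrig1 of 0.35 (interval 0.07 to 0.62), Egfr of 0.28 (interval 0.03 to 0.52) and Met of 0.24 (interval 0.05 to 0.44). The arrays of the 2 groups did not overlap for Erbb3 and Egfr, 2 of 8 genes against 18.6% of all probe sets.

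Around these receptors, 128 genes of 9 lists were counted, from ligands to target genes, and 120 of them had a probe set with 1 symbol. Against saline, 4.84% of all probe sets were called after insulin glargine, 2.41% after Albulin and 2.14% after Insulin-Apo. No list was tested against these shares. None of 10 ErbB ligand genes was called in any comparison. Their differences between insulin glargine and saline ran from -0.20 for Btc, which encodes betacellulin, to 0.63 for Nrg4, a neuregulin (adjusted p = 0.28, limma). None of the 9 genes of HGF and MSP activation was called either. They hold proteases and protease inhibitors that act on HGF or on its relative MSP, together with Mst1 and Mst1r, which encode MSP and its receptor. Their differences between insulin glargine and saline were -0.17 to 0.09. Among 6 genes of ligand shedding, Rhbdf2, a partner of the protease ADAM17, rose by 0.73 and Timp3, its inhibitor, rose by 0.69 after insulin glargine, a call of Timp3 lost in 4 of 21 settings, and none was called after Albulin or Insulin-Apo.

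Of 18 adaptor and kinase genes downstream of the receptors, 3 rose and none fell after insulin glargine. Pik3r1, the regulatory subunit of phosphoinositide 3-kinase, rose by 0.81, Gab2 rose by 0.48 and Ptpn11, which encodes the phosphatase Shp2, rose by 0.46, the last not called in 5 of 21 settings. Braf rose by 0.49, the only called gene of the 8 tested in the RAS and MAP kinase list. That list named 13 genes, and those without a probe set of 1 symbol were not read. Stat3, a transcription factor that receptor kinases activate, rose by 0.76 after Albulin and by 0.53 in the Insulin-Apo livers. Nck1, an adaptor, rose by 0.48 and 0.43 after these fusion proteins, calls lost in 4 and 7 of 19 settings, and Plcg1, a phospholipase recruited by the receptors, fell by 0.50 after each, calls lost in 8 of 19. Plcg1 had a difference of similar size, -0.46, after insulin glargine (adjusted p = 0.0153, limma), with B below 0. The medians of this list, -0.00 after insulin glargine, 0.07 after Albulin and 0.04 after Insulin-Apo, lay near those of all probe sets.

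Of 25 genes of receptor turnover and feedback, 1 rose and 1 fell after insulin glargine. Cblc, of the Cbl ubiquitin ligases that mark receptors for breakdown, fell by 0.72, and the receptor phosphatase gene Ptprj rose by 0.34, a call lost in 6 of 21 settings. After Albulin the phosphatase genes Ptpn2 and Ptpn1, whose products act on receptor kinases, rose by 0.90 and 0.59, and Dusp1, a phosphatase of MAP kinases, fell by 0.62, the last called in only 6 of 19 settings. Ptpn1 and Ptpn2 also rose after Insulin-Apo, by 0.62 and 0.55, the call of Ptpn2 lost in 7 of 19 settings. Dusp1 was the only gene of all 9 lists called between Albulin and Insulin-Apo, with a difference of -0.90.

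Of 15 target genes of growth factors, 2 fell and none rose after insulin glargine. Egr1, a transcription factor induced within minutes of growth factor signalling, fell by 1.81 and Phlda1 fell by 1.26, and both calls held in 21 of 21 settings. Junb rose after the fusion proteins, by 0.68 after Albulin and 0.67 after Insulin-Apo, each call lost in 2 of 19 settings. After insulin glargine its difference was -0.47 (adjusted p = 0.0307, limma), with B below 0. None of the 18 other receptor tyrosine kinase genes of liver was called against saline after any insulin, with differences between -0.37 and 0.40 after insulin glargine. There 5 of the 18 had an adjusted p under 0.05 (limma) with B below 0, and the insulin receptor gene Insr, at -0.32 (adjusted p = 0.00924, limma), and Pdgfra, at 0.40 (adjusted p = 0.009, limma), came closest to a call. Between the insulins, the fibroblast growth factor receptor gene Fgfr4 was called higher after insulin glargine than after Albulin (0.55), as were Fgfr1 (0.48), Fgfr3 (0.48) and Fgfr4 (0.47) relative to Insulin-Apo, the last in only 7 of 21 settings. Kdr was called lower in both.

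Of 13 insulin and FoxO target genes, 1 rose and 1 fell after insulin glargine. Foxo1 rose by 0.95 and Sesn3 fell by 0.47, both called in 9 of 21 settings only. Foxo1 was also called higher than in Albulin livers, in 18 of 21 settings with log2 differences of 1.00 to 1.30. It was called higher than in Insulin-Apo livers as well, in 19 of 21 settings with log2 differences of 0.93 to 1.37. Foxo3 fell by 0.45 in Albulin livers and by 0.41 in Insulin-Apo livers, a call lost in 4 of 19 settings, and Sesn3 fell by 0.50 in Insulin-Apo livers. Trp53inp1 was not called against saline after insulin glargine (log2 difference 1.08) but was higher than in Albulin livers by 1.84 and than in Insulin-Apo livers by 1.42.

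**Figure D3:**
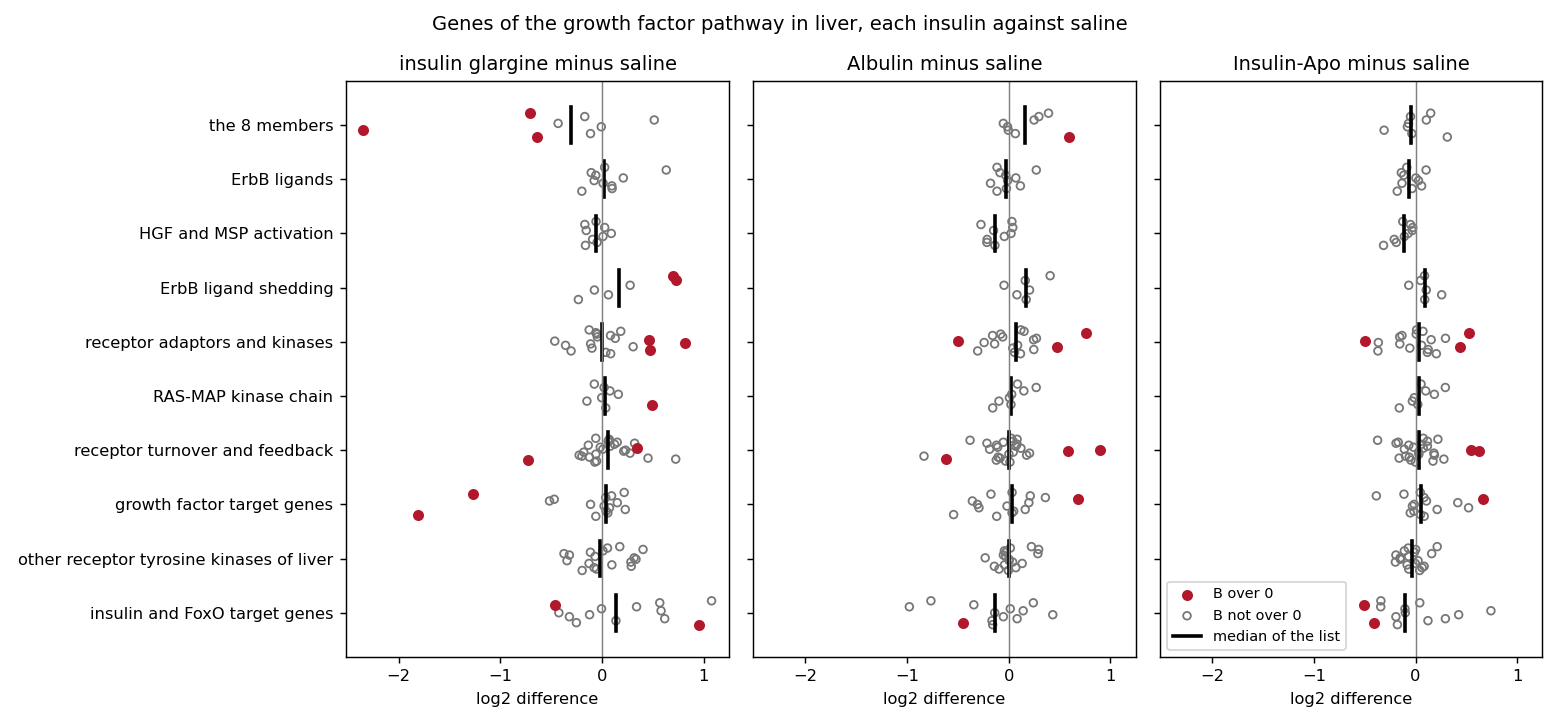
Log2 differences from saline of the 8 genes (top row) and of the listed genes around the receptors, by list, after insulin glargine, Albulin and Insulin-Apo, with points for genes, filled where called, and a line at the list's median. Erbb3 at -2.35 and Egr1 at -1.81 after insulin glargine lie farthest from 0, and the ligand and HGF activation lists hold no called gene.

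The composition of the tissue was read from 7 marker lists. After insulin glargine none of their genes was called against saline. The hepatocyte markers summed to 173000 to 180000 on the linear scale after insulin glargine and 172000 to 176000 after saline, a sum that their brightest probe sets, near the upper limit of the signal, dominate, so it says little of a change in hepatocytes. Kupffer cell markers had a median of -0.25 and lymphocyte markers of -0.27, with summed values of 7600 to 13500 and 1050 to 1320 after insulin glargine, against 10500 to 14000 and 1420 to 1510 after saline. After Albulin, 4 of 7 neutrophil markers rose, with a summed value of 1470 to 1800 against 903 to 1100 after saline, beside the higher Egfr. In Insulin-Apo livers none of the neutrophil markers was called, but their median was 0.49, 6 of 7 were above 0, 2 had an adjusted p under 0.05 (limma) and their summed values, 1240 to 1500, did not overlap with those of saline. After Insulin-Apo 1 of 8 Kupffer cell markers, Marco, rose.

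Markers also moved between the insulins, beside the lower Erbb3, Egfr and Met after insulin glargine. Between insulin glargine and Albulin 4 of 7 neutrophil markers, with a median of -0.996, the endothelial Kdr (-0.66) and the lymphocyte marker Ms4a1 (-0.94) were called lower. Between insulin glargine and Insulin-Apo 3 neutrophil markers, with a list median of -0.59, the Kupffer cell markers Marco (-1.18) and Cd68 (-0.74), the lymphocyte marker Nkg7 (-0.51) and Kdr (-0.53) were called lower, and the cholangiocyte marker Krt19 (0.52) was called higher. No marker was called between Albulin and Insulin-Apo. The part of these cells in the values of the 8 genes was not tested.

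Genes with the most similar pattern to each of the 8 were found by Pearson's r over the 12 arrays among 20504 kept probe sets with 1 symbol, as a description, since all points share the same 4 groups. The genes nearest to Erbb3 were 2810459M11Rik (r = 0.982), Gne (r = 0.979) and Arhgap29 (r = 0.976). Nearest to Met were Slc35f5 (r = 0.979), Lgr5 (r = 0.976) and Depp1 (r = 0.968), and nearest to Egfr were Septin10 (r = 0.975), Acpp (r = 0.972) and Ibtk (r = 0.966). The nearest gene to Hgf was Olfr148 (r = 0.928), to Grb7 Cecr2 (r = 0.927), to Lrig1 D930020B18Rik (r = 0.901), to Errfi1 Acot12 (r = 0.893) and to Erbb2 Myh7 (r = 0.890). None of the 8 genes was among the 3 nearest of another.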

How the data were processed

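Liver RNA was measured on 12 Affymetrix gene arrays (Mouse Gene 1.0 ST). The authors used RMA (Robust Multichip Average) for background correction and normalization, and deposited log2 values for 28213 probe sets. The sources used here give neither the RMA version nor the annotation build, nor whether all arrays went through RMA together. The table held no fold changes or p values of the authors and 0 columns of other series.

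Groups came from the labels of the samples. A probe set was kept where 2 or more arrays of any group exceeded a value of 5, 25989 in the 9 arrays of Albulin, Insulin-Apo and saline and 26027 in all 12, and all 8 genes passed in both. Following the methods, limma 3.58.1 in R 4.3.3 was fitted to those 9 arrays for comparisons among them, and to all 12 for those with insulin glargine, with group as the only factor. Calls required B over 0 at a prior proportion of 0.01. P values come from limma's moderated test with Benjamini-Hochberg adjustment over all kept probe sets, and intervals cover 95%. Python 3.11.15 and matplotlib 3.10.9 drew the figures, and limma's calls were tested on simulated data.

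The 8 genes, the lists and the markers were chosen with earlier results of these data known, so their counts and calls are descriptions of these arrays. From each list up to 4 called genes with the smallest p were named, and 3 similar genes for each of the 8. Ptpn11, Ptprj, Plcg1, Btc, Nrg4, Insr, Lrat, Lyve1, Pecam1, Mst1 and Mst1r were named after their values were seen. Alternatives covered the filter, centring, quantile normalization, a replicate block, an intensity trend, array weights, the arrays in the fit, the call rule and each array left out. Those for list genes were added after seeing the data.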

Additional observations from a re-analysis of the deposited data

How the results depend on the processing

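Across 48 differences of the 8 genes, 924 of 960 values under alternative settings kept their direction and call. Part of this was fixed in advance, since most of the 48 were not called. Leaving out an array of a group not compared also cannot change a log2 difference, only its spread, and the counts of settings given above include such arrays. All calls of Erbb3 and Met, and those of Egfr between insulin glargine and the fusion proteins, held throughout. With adjusted p under 0.05 as the call, 5 of the 8 genes were called between insulin glargine and saline in place of 3, and 2 between Albulin and saline in place of 1. With the replicate number as a block, 0 were called between Albulin and saline. Deviations of same-numbered arrays correlated at over 0.1 in 2 of 18 pairs (-0.27 to 0.15). These pairs share arrays, so the correlations cannot decide whether same-numbered arrays were paired. With 1 array left out, 2 to 4 genes were called between insulin glargine and saline, 0 to 2 between Albulin and saline and 0 to 1 between Insulin-Apo and saline.

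Differences that changed sign were small and never called. Between insulin glargine and saline Errfi1 had 0.0021 with centred arrays and 0.041 with array weights, and between Albulin and Insulin-Apo Grb7 had -0.0078 with centred arrays. With 1 array left out, Errfi1 ranged from -0.051 to 0.048 between insulin glargine and saline, -0.039 to 0.061 between insulin glargine and Albulin and -0.048 to 0.013 between Albulin and saline, where Erbb3 ranged from -0.086 to 0.059. Between Insulin-Apo and saline Lrig1 ranged from -0.16 to 0.039, Hgf from -0.031 to 0.22 and Grb7 from -0.14 to 0.018, and Grb7 ranged from -0.072 to 0.063 between Albulin and Insulin-Apo. In each case the cause was not tested.

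Over all probe sets, calling by adjusted p under 0.05 gave 2848 calls between insulin glargine and saline (1259 by B), 1219 between Albulin and saline (626), 969 between Insulin-Apo and saline (556), 2327 and 2823 between insulin glargine and Albulin or Insulin-Apo (1133 and 1259) and 36 between Albulin and Insulin-Apo (166). Fits of only the arrays compared gave 783, 701 and 645 calls for insulin glargine against saline, Albulin and Insulin-Apo, and fits of all 12 arrays gave 361 between Insulin-Apo and saline and 90 between Albulin and Insulin-Apo. Without saline replicate 2 there were 821, 411 and 324 calls after insulin glargine, Albulin and Insulin-Apo. Between insulin glargine and Albulin 729 were left without Albulin replicate 1, between insulin glargine and Insulin-Apo 815 without Insulin-Apo replicate 2, and between Albulin and Insulin-Apo 77 and 106 without Albulin replicates 1 and 3. Of the calls between Albulin and Insulin-Apo 39.2% were higher, against 26.4% with centred arrays, 50.3% with repeated quantile normalization and 70.5% without Albulin replicate 2. Averaging the probe sets of a gene was not run, as each gene had 1. Outliers were not sought in groups of 3. RMA values compress large differences, Errfi1 lies near the upper limit of the signal, and 3 arrays per group limit the precision.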
